A study of Mus musculus with 53 samples.

Results

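The immediate response to IL-4 was measured as the transcriptome of wild-type (WT) bone marrow-derived macrophages (BMDMs) after 1 h of IL-4, set against WT BMDMs kept for the same 1 h without it. The 2 groups held 4 samples each, 8 of the 53 samples of the series, and all loci that reached at least 1 FPKM in at least 1 of these 8 samples were taken, which left 10657 of the 23847 loci listed. FPKM counts sequenced fragments for a given transcript length and a given number of mapped fragments, so levels of different genes can be compared on it. Marrow cells of WT mice on the C57BL/6 background, 8 to 12 weeks old, were cultured for 6 days in L929-conditioned medium, the source of M-CSF, and then received IL-4 at 20 ng/ml for 1 h (WT IL-4) or were left without it for 1 h (WT control). Shared by every group is this differentiation, and no group was treated with LPS. WT controls at 0 h (4 samples), Stat6-/- BMDMs at 1 h (2 IL-4 and 2 control samples, from a full-body knockout of Stat6) and the WT groups at 3, 6 and 24 h are used here only for comparison. The WT groups of the study were described as individual animals, but the labels do not tie a replicate number to an animal. The p-values measure the spread between samples within a group only, as estimated over all 53 samples of both genotypes and all times.

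IL-4 is a cytokine of type 2 immunity, made by T helper cells, basophils and other cells. It binds a receptor of IL-4Rα and the common γ chain or IL-13Rα1, whose Janus kinases phosphorylate STAT6. STAT6 then enters the nucleus, binds DNA and changes transcription, and over a day of exposure macrophages take on the alternatively polarized state known from helminth infection and wound repair, with arginase, lectin receptors and lowered inflammatory gene expression. RNA at an early time shows the genes that respond without needing much new protein, among them feedback inhibitors of the receptor and transcription factors that act on later genes.

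The 8 samples were close in the number of loci detected. FPKM values added up to 390427 to 464915 in a sample, of which 10157 to 10380 loci were at 1 FPKM or more. Relative depth among the 0 h and 1 h samples, recovered from the steps between values of low loci, ran from 0.823 to 1.348 in the IL-4 samples and from 0.713 to 1.483 in the controls. Stat6 was at 68.9 to 90.6 FPKM in the 8 WT samples and at 14.3 to 20.3 FPKM in the 4 Stat6-/- samples, so the groups matched their genotype labels. Of the macrophage markers, Csf1r, Adgre1 (listed as Emr1), Cd68 and Itgam encode the M-CSF receptor, F4/80, a lysosomal glycoprotein and an integrin chain. The lowest of these was Itgam, at 227.7 ± 14.7 FPKM in controls and 233.6 ± 15 FPKM with IL-4 (SD, n = 4), and 9 of the 9 markers found in the files reached 1 FPKM. Lyz2, which encodes lysozyme, was listed at 0 in 2 IL-4 samples and 1 control and at 18727 to 25120 FPKM in the other 5, and its change is not interpreted here. The samples at 0 had the highest relative depths of the 8, at 1.348 and 1.227 with IL-4 and 1.483 in the control. Lyz2 is counted in the FPKM sums and among the 9 markers. Without it the sums ran from 378666 to 439794. Markers of neutrophils reached 1 FPKM for 9 of 9 genes and summed to 354.5 to 622.4 FPKM in controls and 405.3 to 592.2 FPKM in IL-4 samples, with none of them called, and their part in the results was not tested. Markers of dendritic cells, T and NK cells and B cells reached 1 FPKM for 1 gene each (Cd3e, Gzma, Pax5 and Ebf1 were at 0 in all 8 samples), those of eosinophils for 2, and those of mast cells, erythroid cells and stromal cells for none. No marker of another cell type was called.

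One hour of IL-4 raised 122 genes and lowered 44 in WT BMDMs. These counts are 1.14% and 0.413% of the loci tested, 1.56% together, and they required a Benjamini-Hochberg adjusted p under 0.05 in limma and at least a 2-fold change on the log2(FPKM + 1) scale, which understates the change of genes at low levels. In bulk RNA, a change in RNA per cell and a change in the share of the cells that hold it cannot be told apart. At any fold, 1039 loci had an adjusted p under 0.05, 617 higher and 422 lower. Every one of the 166 called genes had all IL-4 samples beyond all control samples, where 8.23% of all loci tested had every IL-4 sample above every control and 7.92% had every IL-4 sample below. The 166 were chosen on these same samples, so their separation is no independent support for the calls. The median log2 fold change over all loci tested was -0.02. The shares of 1.14% and 0.413% are the background for the counts of list members given below. The lists were chosen with earlier results of these data known, so a count above these shares is no test. The increased genes went from a median level of 4.20 to 14.8 FPKM, and 25 of the 122 were below 1 FPKM in controls. The decreased genes went the other way, from a median of 13.9 to 4.31 FPKM. All 44 were above 1 FPKM in controls, as a 2-fold decrease on the log2(FPKM + 1) scale requires. A gene below 1 FPKM in every control was tested only through its IL-4 samples and could only be called increased. The change was at least 4-fold in 24 increased and 10 decreased genes. The fold threshold cut through a continuous range: Arrdc4, Ptgs1 and Zcchc2 lay just inside it at log2 fold changes of 1.00 to 1.01, and Kmo, Zfp36l1 and Clk4 just outside at 0.99. With a pseudocount of 5 in place of 1, which shrinks the fold of low genes, 55 genes were increased and 19 decreased.

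**Figure D1:**
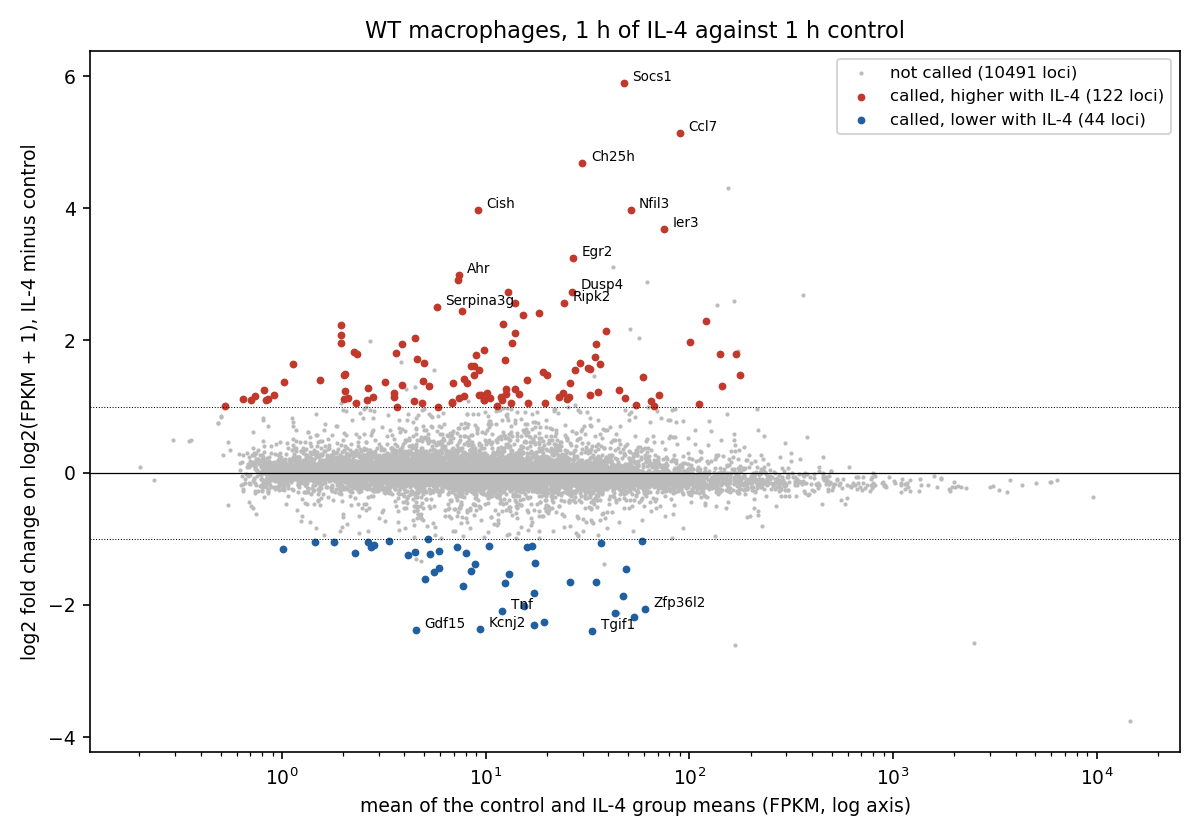
Log2 fold change of 1 h IL-4 against 1 h control in WT BMDMs (vertical axis, on log2(FPKM + 1)) against the mean of both group means (horizontal axis, FPKM, log scale), 1 point per locus tested. The 122 red points are increased and the 44 blue points decreased, dotted lines mark a 2-fold change, Socs1 is highest at 5.90, Tgif1 is the lowest called gene at -2.40, and the grey point at the lower right is Lyz2, which is listed at 0 in 3 of the 8 samples.

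The largest increase of all was in a feedback inhibitor of the receptor. Suppressors of cytokine signalling (SOCS proteins) bind receptors or Janus kinases and shut the pathway down. Of the 8 family members, 4 rose and none fell, with a median log2 fold change of 0.98. Socs1, Cish and Socs2 were below 1 FPKM in every control, so they could not have been called decreased. Socs1, which inhibits Janus kinases directly, was at 0.643, 0.736, 0.648 and 0.342 FPKM in the controls and at 99.5, 87.5, 122.0 and 72.1 FPKM with IL-4. The lowest IL-4 sample was thus far above the highest control, and the mean rose 160.8-fold (log2 fold change 5.90 ± 0.26 (SE), limma with Benjamini-Hochberg adjusted p = 2.88e-20). Cish, which encodes a SOCS protein best known as a STAT5 target, was near absence in controls at 0.256, 0.165, 0.141 and 0.231 FPKM and reached 15.4, 13.4, 23.2 and 20.4 FPKM (3.97 ± 0.14 on the log2 scale, limma adjusted p = 4.01e-23). Socs5 rose from 5.35 ± 0.222 to 19.7 ± 0.764 FPKM (SD, n = 4), and Socs2 from 0.0705 ± 0.0372 to 1.41 ± 0.326 FPKM (SD, n = 4). Socs3, the inhibitor of the IL-6 receptor family, was at 1.32 ± 0.22 and 3.08 ± 0.781 FPKM (SD, n = 4) and was not called (limma adjusted p = 0.268).

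STAT dimers bind palindromes of TTC and GAA, spaced by 3 bases for most STATs and also by 4 for STAT6. The promoter of Cish is shown because 2 such palindromes with 3 bases between stand next to each other at its start. The sequence is the RefSeq promoter window (250 bases before to 50 after the start site, build GRCm38.p6, plus strand, chr9:107296409-107296708), with the palindromes in capitals.
Cish: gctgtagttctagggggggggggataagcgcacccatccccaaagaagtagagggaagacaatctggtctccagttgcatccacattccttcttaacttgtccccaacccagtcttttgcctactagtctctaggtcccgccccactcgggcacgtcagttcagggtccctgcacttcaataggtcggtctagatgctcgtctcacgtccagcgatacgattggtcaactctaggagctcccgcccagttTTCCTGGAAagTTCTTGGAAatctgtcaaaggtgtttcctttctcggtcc
The first palindrome begins at the start site itself and the second 11 bases further on. Among 27025 RefSeq promoter windows of this length, 8.37% held a palindrome with 3 bases between and 7.03% one with 4, on either strand. A match describes the letters and is no evidence of binding.

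The receptor and the kinases were without a called gene. Of 16 expressed components of the IL-4 receptor and the JAK-STAT pathway none passed both thresholds, and their median log2 fold change was -0.01. The largest value was that of Jak2, a Janus kinase that signals from the type II receptor, at 10 ± 0.317 FPKM in controls and 18 ± 0.963 FPKM with IL-4 (SD, n = 4), short of the fold threshold (0.79 on the log2 scale, limma adjusted p = 5.15e-08). Il4ra, the receptor's ligand-binding chain, was at 19.4 ± 1.0 and 26.3 ± 2.77 FPKM (SD, n = 4; limma adjusted p = 0.332). Stat6 itself was at 82.7, 90.6, 79.5 and 79.1 FPKM in controls and at 71.8, 72.3, 71.9 and 68.9 FPKM with IL-4. All IL-4 samples were below all controls, by a margin too small for a call (limma adjusted p = 0.0928).

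Among 22 expressed macrophage transcription factors, 5 rose and 2 fell, with a median of -0.10. Nfil3, a basic leucine zipper factor first known from IL-3 signalling, went from 5.1, 4.85, 6.18 and 5.15 FPKM to 95.5, 90.1, 108.4 and 98.0 FPKM (3.97 ± 0.14, limma adjusted p = 4.62e-23). Irf4, an interferon regulatory factor needed for alternative polarization, went from 0.84, 0.907, 1.12 and 0.869 FPKM to 12.9, 12.5, 15.2 and 14 FPKM (2.92 ± 0.13, limma adjusted p = 3.96e-20). Both moved from a tight low range to a tight high one with no overlap. Tfec, a relative of MITF expressed mainly in macrophages, was more variable, at 11.4, 11, 15.5 and 16.4 FPKM in controls and 49.4, 46.9, 73.7 and 89.7 FPKM with IL-4. Batf3, an AP-1 family member, rose from 4.9 ± 1.08 to 22.1 ± 5.53 FPKM (SD, n = 4). Cebpb, a factor of the inflammatory response that is also used in arginase expression, fell from 14.6 ± 2.22 to 6.23 ± 0.818 FPKM (SD, n = 4). The other decrease was Tgif1, described below with the decreases. Outside the list, Ahr, the aryl hydrocarbon receptor, a ligand-activated transcription factor, rose from 0.728, 0.768, 0.944 and 1.06 FPKM to 13.5, 12.8, 13.2 and 16.1 FPKM (2.99 ± 0.16, limma adjusted p = 1.42e-17).

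Immediate-early genes, which growth factors and stress induce without new protein, split in both directions. Of 22 expressed members 6 rose and 5 fell, with a median of -0.12. Ier3, a regulator of survival signalling, was at 10.6, 7.82, 10.4 and 11.4 FPKM in controls and 139.3, 128.6, 152.6 and 140.4 FPKM with IL-4. Egr2, a zinc finger factor, was at 3.58, 3.6, 4.28 and 5.94 FPKM and reached 41.7, 46.4, 56.6 and 53.1 FPKM. Myc rose from 5.11 ± 0.472 to 31.5 ± 3.16 FPKM and Fosl2, an AP-1 subunit, from 3.53 ± 0.381 to 20.7 ± 3.64 FPKM (SD, n = 4). The other 2 increased members were Klf4 (3.51 ± 0.232 to 14.5 ± 1.65 FPKM) and Csrnp1 (3.68 ± 0.463 to 16 ± 2.64 FPKM; SD, n = 4). The 5 that fell were Fos, another AP-1 subunit, Btg2, Klf10, Klf2 and Nr4a1. Fos was abundant in controls, at 93.0, 105.6, 89.0 and 65.9 FPKM, and was at 22.5, 25.2, 17.3 and 11.7 FPKM with IL-4 (-2.18 ± 0.17, limma adjusted p = 3.25e-13). Within the AP-1 and Krüppel-like families, IL-4 therefore had members on both sides at 1 h: Fosl2 and Klf4 rose where Fos, Klf2 and Klf10 fell.

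Phosphatases and other brakes on MAP kinases also split. Of 11 expressed members 1 rose and 2 fell (median -0.03). Dusp4, a nuclear MAP kinase phosphatase, was at 5.27, 6.82, 6.13 and 6.51 FPKM in controls and 45.1, 50.7, 45.8 and 46.2 FPKM with IL-4 (2.74 ± 0.31, limma adjusted p = 5.61e-09). Dusp1, its relative that limits p38 and JNK signalling in macrophages, did the reverse, from 35.3, 41.8, 30.1 and 23.6 FPKM to 5.77, 7.24, 5.58 and 5.09 FPKM (-2.26 ± 0.33, limma adjusted p = 1.54e-06). Spry2, an inhibitor of receptor tyrosine kinase signalling, fell from 2.78 ± 0.655 to 0.816 ± 0.244 FPKM (SD, n = 4), a call lost without IL-4 replicate 1 or without control replicate 2 (log2 fold changes -0.99 and -0.95).

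**Figure D2:**
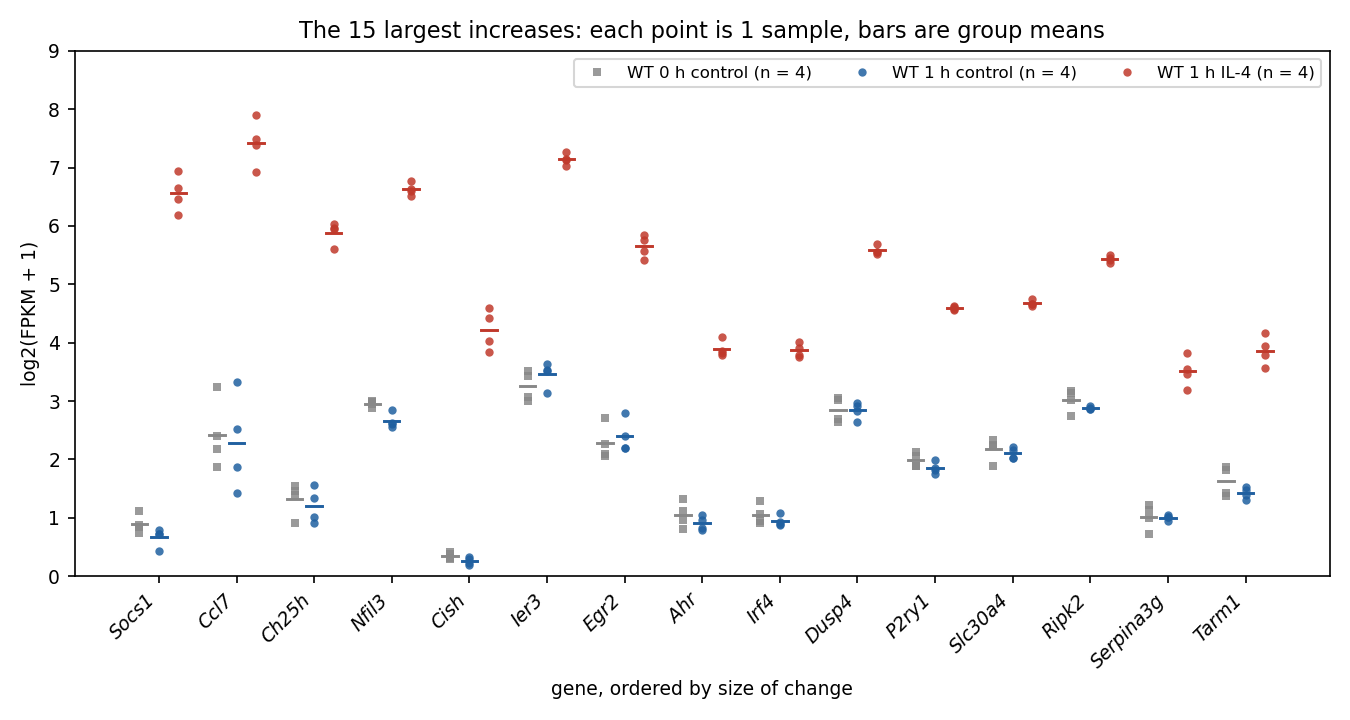
Level on log2(FPKM + 1) (vertical axis) of the 15 genes with the largest increases (horizontal axis) in WT 0 h controls (grey), 1 h controls (blue) and 1 h IL-4 samples (red), 1 point per sample and n = 4 per group, with a bar at each group mean. In all 15 genes the IL-4 samples sit above every control, and the widest spread among controls is that of Ccl7.

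Genes of communication between cells were called in both directions. Of 17 expressed chemokines 1 rose and 1 fell (median -0.07), and of all loci tested 1.14% rose and 0.413% fell. Ccl7, a monocyte attractant, had the second largest increase of all, from 4.73, 9.02, 1.67 and 2.65 FPKM to 179.5, 237.8, 120.0 and 166.3 FPKM, with the largest SE among the called genes (5.14 ± 1.26, limma adjusted p = 0.00368). Ccl2, its neighbour on chromosome 11 and the main ligand of CCR2, was at 14, 21.5, 8.97 and 12.5 FPKM in controls and 108.3, 148.8, 80 and 101.5 FPKM with IL-4. These values did not overlap either, but Ccl2 did not pass the test, in which all 53 samples share 1 estimate of the spread (limma adjusted p = 0.0729). It was called with the replicate number as a block and in a fit of only the samples compared (limma adjusted p = 4.64e-07 and 3.92e-05), as was Ccl12, at 1.55 on the log2 scale, so that 3 chemokines rose in those fits. In all WT groups of 0 and 1 h, Ccl2 was highest in replicate 2 and lowest in replicate 3. Cxcl2, a neutrophil attractant, fell from 4.11 ± 0.901 to 1.34 ± 0.286 FPKM (SD, n = 4). Of 10 expressed inflammatory cytokine and inflammasome genes only Tnf was called. It fell from 21.3, 20.4, 18.7 and 20.4 FPKM to 4.29, 4.49, 3.86 and 3.32 FPKM (-2.09 ± 0.13, limma adjusted p = 4.74e-16). Il1b was at 6.19 ± 2.33 and 2.74 ± 1.43 FPKM (SD, n = 4), its groups overlapped, and it did not pass (limma adjusted p = 0.396), although each IL-4 sample was below the control of the same number. Its log2 fold change of -0.97 fell just short of the fold threshold. The limma adjusted p was 0.000256 with the replicate number as a block and 0.0869 with only the samples compared. Neither fit called it. Among 10 expressed growth factors and vasoactive peptides 2 rose and 2 fell. Both increases, of Hbegf and Edn1, passed the floor of 1 FPKM only through the IL-4 samples. Hbegf, a ligand of the EGF receptor, went from at most 0.0645 FPKM in any control to 3.38, 3.75, 3.64 and 4.81 FPKM. Edn1, the precursor of the vasoconstrictor endothelin, went from 0.0653 ± 0.0277 to 1.35 ± 0.591 FPKM (SD, n = 4), at the edge of the fold threshold (1.10 ± 0.24; 0.97 without IL-4 replicate 1, not called).

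NF-κB subunits and inhibitors gave 1 increase and 2 decreases among 15 expressed genes (median -0.21). Rel, the subunit c-Rel, rose from 4.54 ± 0.515 to 23.5 ± 5.57 FPKM (SD, n = 4). Nfkbiz, the nuclear inhibitor IκBζ that is needed for a set of secondary inflammatory genes, fell from 15.4, 11.3, 11.9 and 11.1 FPKM to 3.78, 3.41, 2.57 and 2.59 FPKM, and Bcl3, a related nuclear protein, from 13.0 ± 1.93 to 4.03 ± 0.916 FPKM (SD, n = 4). Ripk2, the kinase that carries signals from NOD receptors to NF-κB, rose from 6.27, 6.37, 6.26 and 6.52 FPKM to 44.4, 41.7, 42.7 and 40.3 FPKM, one of the tightest changes (2.56 ± 0.11, limma adjusted p = 2.77e-20). Of 17 expressed pattern recognition receptors 1 was called, Tlr4, the receptor of lipopolysaccharide, which rose from 21.0 ± 2.05 to 50.2 ± 5.55 FPKM (SD, n = 4), while the list's median was -0.21. Tlr8, a receptor of single-stranded RNA, was at 57.9 ± 12.4 and 111.9 ± 9.41 FPKM (SD, n = 4; 0.96 on the log2 scale), just under the fold threshold.

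Markers of the alternatively polarized state were already moving at 1 h. Of 15 expressed markers 6 rose and none fell, with a median of 0.63 beside -0.02 over all loci tested. Arg1, Slc7a2 and Pdcd1lg2 passed the floor of 1 FPKM only through the IL-4 samples and could not have been called decreased. The count and the median are therefore in part set by the filter. The levels reached were low: Arg1, the arginase that turns arginine into ornithine, went from at most 0.0509 FPKM in any control to 1.9, 2.6, 2.17 and 2.29 FPKM (1.65 ± 0.16, limma adjusted p = 3.42e-10). Slc7a2, a cationic amino acid transporter that imports arginine, went from 0.114, 0.108, 0.107 and 0.191 FPKM to 3.34, 3.8, 3.6 and 4.43 FPKM (2.08 ± 0.08, limma adjusted p = 4.62e-23). Clec7a, the β-glucan receptor Dectin-1, was abundant before and rose from 78.5, 69.8, 78.2 and 74.9 FPKM to 258.9, 244.5, 257.4 and 300.6 FPKM. Pdcd1lg2, the PD-1 ligand PD-L2, rose from 0.171 ± 0.0439 to 1.66 ± 0.266 FPKM and Il4i1, a secreted amino acid oxidase, from 1.13 ± 0.237 to 3.48 ± 0.703 FPKM (SD, n = 4). Mgl2, a galactose-type lectin, went from 1.48, 1.06, 1.77 and 2.58 FPKM to 3.8, 4.2, 7.41 and 8.67 FPKM (1.33 ± 0.35, limma adjusted p = 0.0086), a change that was not called without IL-4 replicate 4 (1.16 on the log2 scale). Of the short stretches of its longest annotated transcript, 16.5% also occur in other genes, most in Clec10a, between which fragments could be split. Retnla and Chil3 (listed as Chi3l3), markers of the later state, did not pass, at 0.50 and 0.22 (limma adjusted p = 0.339 and 0.67).

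Of 19 expressed oxysterol and cholesterol genes 1 rose and 1 fell, with a median of -0.11. Ch25h, the enzyme that makes 25-hydroxycholesterol, a regulator of sterol synthesis and an antiviral lipid, was at 1.52, 1.95, 1.03 and 0.891 FPKM in controls and at 60.9, 61.2, 64.2 and 47.8 FPKM with IL-4, the third largest increase (4.68 ± 0.50, limma adjusted p = 2.55e-09). Mylip, a ubiquitin ligase that degrades the LDL receptor, fell from 25.7 ± 3.54 to 9.37 ± 1.64 FPKM (SD, n = 4).

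The remaining genes of the largest increases belong to none of the lists. P2ry1, a receptor of ADP, went from 2.54, 2.38, 2.97 and 2.63 FPKM to 22.7, 22.9, 23.6 and 23.3 FPKM. Slc30a4, a zinc exporter, went from 3.07, 3.09, 3.45 and 3.61 FPKM to 24.3, 24.2, 23.7 and 25.9 FPKM. Tarm1, an activating receptor of myeloid cells, went from 1.9, 1.47, 1.62 and 1.78 FPKM to 12.8, 10.8, 16.9 and 14.3 FPKM. Within each of these genes the 4 IL-4 samples lay closer to each other than to any control. Serpina3g, a protease inhibitor, went from 1.06, 1.02, 0.919 and 1.03 FPKM to 13.2, 10.7, 10 and 8.12 FPKM. Of the short stretches of its longest annotated transcript, 16% also occur in other genes, most in Serpina3h. Its locus overlaps Serpina3f, so that fragments of these genes may be split between them.

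On the log2(FPKM + 1) scale the largest decrease was that of Tgif1, a homeodomain repressor that limits TGF-β and retinoid signalling. It was at 59.6, 55.3, 57.1 and 55.8 FPKM in controls and at 9.15, 9.81, 9.89 and 11.1 FPKM with IL-4, 5.71-fold lower (-2.40 ± 0.12, limma adjusted p = 1.91e-18). Of 23 expressed genes of TGF-β and SMAD signalling 4 fell and 1 rose, with a median of 0.02. Those that fell were Tgif1, Gdf15, a distant TGF-β family cytokine of stress responses, and Id2 and Id3, inhibitors of basic helix-loop-helix factors. Gdf15 went from 8.41, 5.55, 9.27 and 9.98 FPKM to 0.762, 0.47, 1.14 and 0.717 FPKM, a larger ratio of mean FPKM than that of Tgif1 at 10.7-fold (-2.38 ± 0.33, limma adjusted p = 6.07e-07). Id2 fell from 72.0 ± 4.82 to 25.9 ± 3.56 FPKM and Id3 from 1.79 ± 0.538 to 0.239 ± 0.107 FPKM, whereas their relative Id1 rose from 0.416 ± 0.0649 to 4.11 ± 0.889 FPKM (SD, n = 4). Id1 passed the floor of 1 FPKM only through the IL-4 samples and could not have been called decreased. The SMAD genes and the TGF-β receptors themselves were not called.

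Kcnj2, which encodes the inward rectifier potassium channel that sets the resting potential of macrophages, went from 15.4, 14.7, 17.8 and 17.8 FPKM to 2.5, 2.77, 1.94 and 2.3 FPKM (-2.37 ± 0.32, limma adjusted p = 3.66e-07). Of 9 expressed potassium channel and transporter genes it was the only decrease, and Kcna3, a voltage-gated channel, the only increase (0.367 ± 0.1 to 2.71 ± 1.02 FPKM; SD, n = 4). Kcna3 passed the floor of 1 FPKM only through the IL-4 samples and could not have been called decreased. Pdgfb, a growth factor for mesenchymal cells, went from 31.3, 29.5, 31.9 and 24.8 FPKM to 5.17, 5.34, 6.1 and 4.09 FPKM. Cxcr4, the receptor of CXCL12, went from 72.0, 61.5, 75.6 and 75.8 FPKM to 16.6, 12.5, 17.0 and 16 FPKM. A uniform decrease was that of Zfp36l2, an RNA-binding protein that speeds the decay of AU-rich mRNAs, from 101.2, 81.2, 105.8 and 104.6 FPKM to 22.4, 22.4, 22.8 and 23.2 FPKM (-2.06 ± 0.09, limma adjusted p = 5.84e-21).

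**Figure D3:**
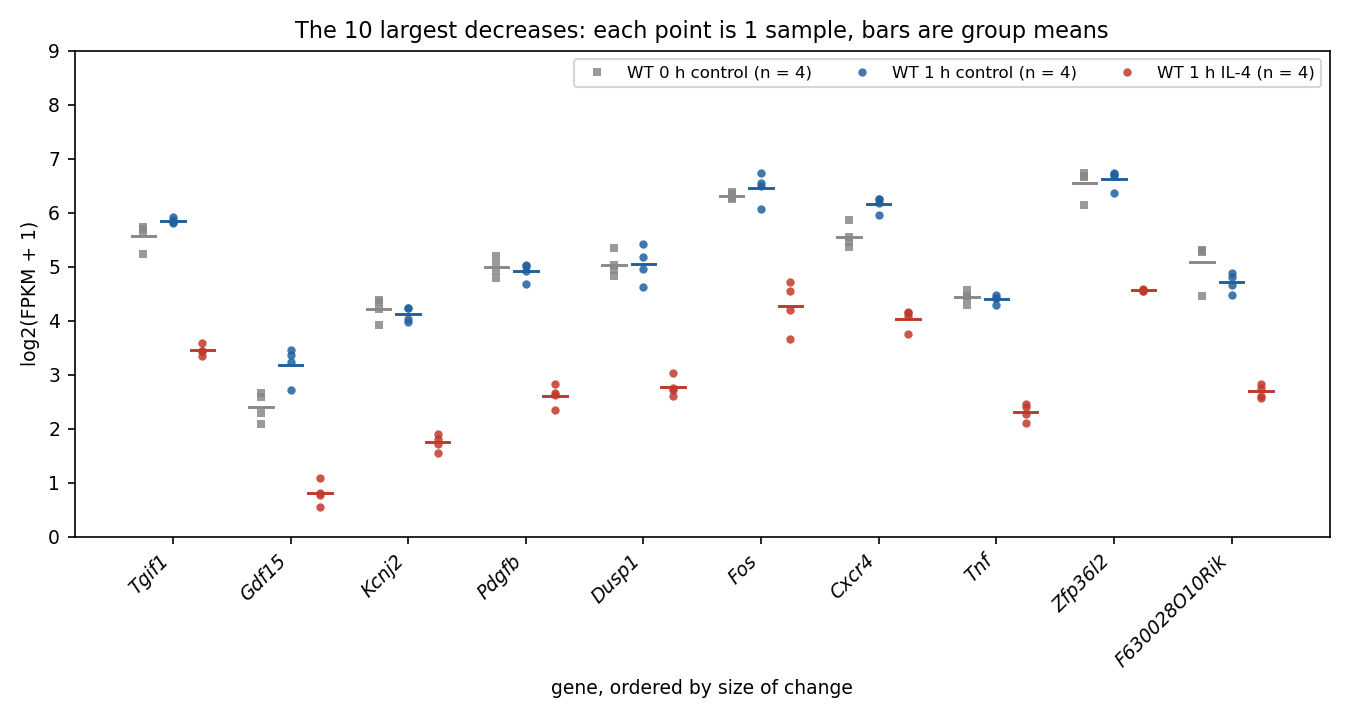
Level on log2(FPKM + 1) (vertical axis) of the 10 genes with the largest decreases (horizontal axis) in WT 0 h controls (grey), 1 h controls (blue) and 1 h IL-4 samples (red), 1 point per sample and n = 4 per group, with a bar at each group mean. In all 10 genes the IL-4 samples sit below every control of either time, and in Tgif1, Gdf15 and Cxcr4 every 1 h control is above every 0 h control.

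The tenth of the largest decreases was F630028O10Rik, a noncoding transcript on chromosome X (96239926 to 96243642, mm10) that holds the hairpin of miR-223, a microRNA of myeloid cells. It went from 24.4, 21.3, 28.4 and 27.2 FPKM to 6.1, 5.74, 5.12 and 4.97 FPKM (-2.02 ± 0.13, limma adjusted p = 9.53e-16). Vmp1, whose locus holds the hairpin of miR-21, rose from 43.3 ± 4.08 to 98.2 ± 1.56 FPKM (SD, n = 4). The mature microRNAs of both hosts, on the strand of the host, are shown from RefSeq because they name what these transcripts carry, with the seed (bases 2 to 8) in capitals.
miR-223-3p: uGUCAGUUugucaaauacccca
miR-223-5p: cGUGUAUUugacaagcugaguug
miR-21a-5p: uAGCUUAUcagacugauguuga
miR-21a-3p: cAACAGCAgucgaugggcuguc
No 2 of these share a seed. The polyadenylated RNA measured here gives the level of the host transcripts and none of the mature microRNAs. Loci that hold a hairpin with a listed mature microRNA were 5 of the 166 called genes (3.01%). Those with any hairpin were 410 of all loci tested (3.85%), so the 2 shares are not counted alike. The other 3 of the 5 were Pdgfb, Klf7 and Zc3h12c.

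Interferon and reference genes gave no call. None of 25 interferon-stimulated genes was called (median -0.05), the largest being Irf1, an interferon-induced transcription factor, at 57.0, 52.5, 55.0 and 59.4 FPKM in controls and 118.4, 98.9, 120.0 and 99.2 FPKM with IL-4 (0.95 on the log2 scale, limma adjusted p = 0.000541), and Gbp5 (0.88, limma adjusted p = 0.229). None of 10 reference genes was called, with a median of -0.09, although all 10 had values below 0. Of these, Actb was at 2086 ± 68.1 and 1800 ± 130.9 FPKM and Rplp0 at 255.0 ± 6.12 and 228.5 ± 29.1 FPKM (SD, n = 4).

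The hour in culture was examined by setting the 1 h groups beside the 0 h controls. In 1 h against 0 h controls no gene was called by limma, while 211 had an adjusted p under 0.05 at smaller folds, 183 of them lower, and 1267 an unadjusted p under 0.05. The comparisons share samples with the main one and are given side by side only. For the 15 largest increases, the 1 h controls stayed near the 0 h level: Socs1 was at 1.18, 0.83, 0.792 and 0.664 FPKM at 0 h, and Egr2 at 3.19, 3.28, 3.79 and 5.51 FPKM. Nfil3, at 6.93, 6.35, 7.01 and 6.74 FPKM at 0 h, was the gene of the 15 in which all 1 h controls lay below all 0 h controls. In 3 of the 10 largest decreases, Tgif1, Gdf15 and Cxcr4, all 1 h controls lay above all 0 h controls. Cxcr4 was at 40.4, 42.8, 57.2 and 45.8 FPKM at 0 h and gave a log2 fold change of -1.52 for 1 h IL-4 against 0 h, beside -2.13 against the 1 h control. Gdf15 was at 5.37, 3.24, 5.02 and 3.93 FPKM at 0 h and gave -1.60 beside -2.38. Id2, a called decrease outside these 10, was at 34.3, 49.8, 42.8 and 36.0 FPKM at 0 h and 72.0 ± 4.82 FPKM in 1 h controls (0.82, limma adjusted p = 0.00533). For Id2, 1 h IL-4 against 0 h gave -0.63, short of a call. All 15 increases and all 10 decreases were also called against 0 h.

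Whether the response needs STAT6 was asked in Stat6-/- BMDMs at the same dose and time. There no gene was called by limma (0%), and a per-gene model with Tukey's adjustment called 2, Irf1 upward and Ceacam1 downward. Only 49 of the 10657 loci tested had an unadjusted limma p under 0.05, far fewer than chance alone would give. The test was thus strict here, and the lack of calls does not show that no gene responded. Each Stat6-/- group held only 2 samples, and these differed much in some genes. The 122 genes increased in WT had a median log2 fold change of 0.05 in Stat6-/- (range -0.15 to 0.96), and the 44 decreased genes one of 0.00 (-0.48 to 0.39), beside 0.00 over all loci tested. None of the 166 reached a 2-fold change on the log2(FPKM + 1) scale, although group means of low or variable genes did in FPKM, such as Cish at 0.258 and 1.37 FPKM and Socs1 at 0.768 and 2.78 FPKM. The difference between genotypes was tested itself, with the same WT samples: it was called in 139 loci (1.3% of those tested). In the direction of the WT change it was called in 93 of the 122 increased and 34 of the 44 decreased genes, which had been chosen on these WT samples. Among those that did not pass were Csrnp1, Mgl2, Il4i1, Edn1, Nfkbiz and Spry2. Tgif1 was at 69.7 and 53.2 FPKM in Stat6-/- controls and 65.9 and 41.6 FPKM with IL-4, a difference from WT of -2.19 (limma adjusted p = 8.4e-10). Tnf was at 15.8 and 21.7 FPKM and at 19.6 and 24.9 FPKM (difference -2.33, limma adjusted p = 6.59e-10).

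Among the 166 genes, the largest values in Stat6-/- belonged to some of the strongest WT responders. Socs1 was at 0.464 and 1.07 FPKM in Stat6-/- controls and 1.08 and 4.48 FPKM with IL-4, and Cish at 0.39 and 0.126 FPKM and at 1.21 and 1.52 FPKM. Both were far below the WT IL-4 levels, with differences between genotypes of 4.94 and 3.05 on the log2 scale (limma adjusted p = 3.11e-10 and 4.71e-12). Neither change in Stat6-/- was called, at 0.96 and 0.92, but with a pseudocount of 0.1 that of Cish was, at 2.13. Ccl7 differed between the Stat6-/- replicates more than between treatments, at 1.04 and 73.5 FPKM in controls and 2.1 and 183.6 FPKM with IL-4, and the difference from WT did not pass for it (4.19, limma adjusted p = 0.539). Irf1 had like changes in both genotypes, with 52.8 and 68.8 FPKM in Stat6-/- controls and 89.5 and 192.1 FPKM with IL-4 (1.11 beside 0.95 in WT, difference -0.16, limma adjusted p = 0.983), a p that does not show the changes to be equal.

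**Figure D4:**
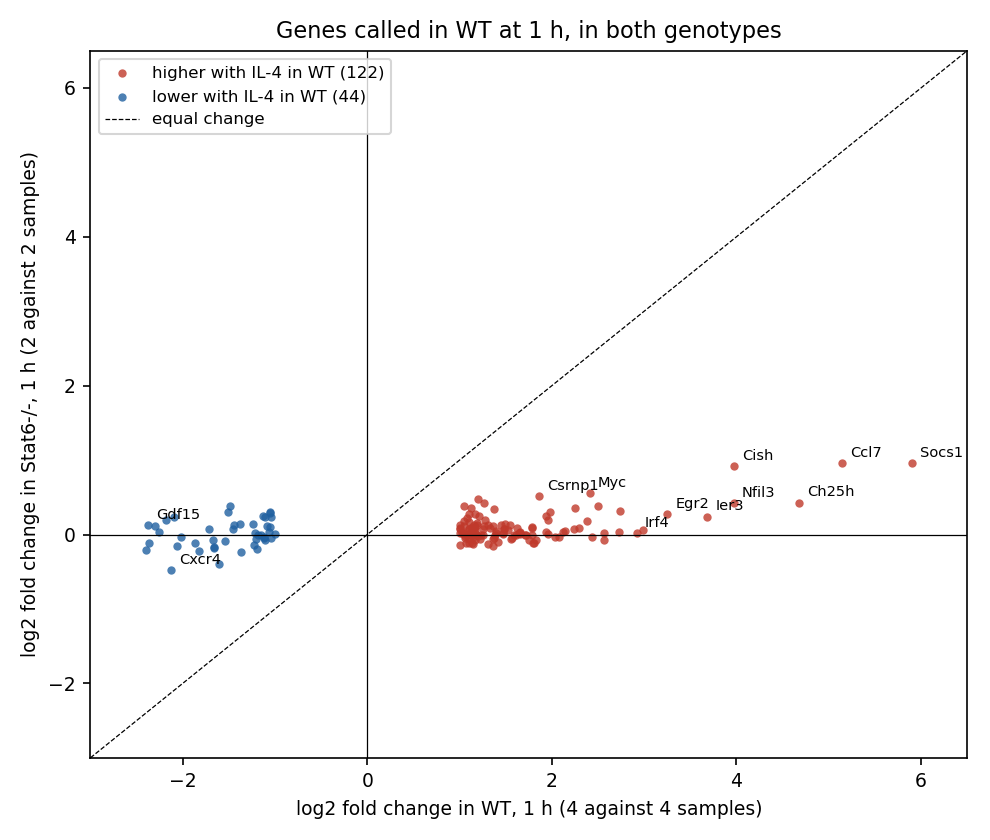
Log2 fold change of 1 h IL-4 against 1 h control in WT (horizontal axis, 4 against 4 samples) and in Stat6-/- BMDMs (vertical axis, 2 against 2 samples), on log2(FPKM + 1), for the 166 genes called in WT. Red points are the 122 increased and blue points the 44 decreased genes, and most lie along the horizontal line at 0, with Socs1, Ccl7 and Cish the highest in Stat6-/- at 0.96, 0.96 and 0.92.

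What became of the 1 h genes was followed in the WT groups at 3, 6 and 24 h, each with controls of its own. Of the 122 increased genes, 89 were called the same way at 3 h (where 2.48% of loci tested were increased), 76 at 6 h (2.97%) and 39 at 24 h (3.52%), and their median log2 fold change went from 1.49 at 3 h to 1.35 at 6 h and 0.44 at 24 h. Of the 44 decreased genes, 27 were called the same way at 3 h (1.33% of loci tested were decreased), 20 at 6 h (2.46%) and 12 at 24 h (4.78%), with medians of -1.16, -0.79 and -0.46. Called the same way at all 3 later times were 38 increased genes, among them Socs1, Cish, Irf4, Nfil3 and Arg1, and 7 decreased genes, among them F630028O10Rik, Cxcr4 and Nfkbiz. Called at none of them were 29 increased genes, such as Trib1, Tlr4 and Vmp1, and 11 decreased genes, such as Gdf15 and Zfp36l2. A further 4 genes that rose at 1 h, Cited2, Filip1l, Pde4b and Tnfsf14, and 1 that fell, Id2, were called in the opposite direction later.

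The difference between the 24 h and 1 h responses, tested with the 1 h samples in both terms, was called in 936 loci (8.78%). It was lower at 24 h in 60 of the 122 increased genes and higher in 9, and it was higher in 23 of the 44 decreased genes and lower in 1, Nfkbiz. Over all loci tested it was lower in 5.0% and higher in 3.78%. The 122 and 44 genes were chosen on these same 1 h samples, which favours a shift back towards 0. The counts are therefore no independent support for a loss of the response. Among the genes called at 1 h, the widest losses were in Ch25h and Cited2. Ch25h was at 58.5 ± 7.33 FPKM after 1 h of IL-4 (SD, n = 4), 24.7 ± 5.51 FPKM after 3 h, 7.26 ± 3.17 FPKM after 6 h and 0.159 ± 0.14 FPKM after 24 h (SD, n = 3 at 24 h), a difference of -4.81. Cited2, a co-regulator that competes for p300 and CBP, was at 161.6 ± 21.1 FPKM after 1 h and 16.5 ± 1.26 FPKM after 24 h, where its control was at 40.8 ± 3.69 FPKM (difference -3.23). Ahr and Pde4b, a cyclic AMP phosphodiesterase, followed at -3.18 and -2.64.

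Among the genes called at 1 h, the widest gains were in polarization markers and in Gdf15. Arg1 went on from 2.24 ± 0.293 FPKM at 1 h to 16 ± 2.87 FPKM at 3 h and 67.6 ± 24.0 FPKM at 6 h (difference 4.28 between 24 h and 1 h). Mgl2 and Il4i1 followed at 4.25 and 3.69, and Il4i1 was highest at 6 h with 129.9 ± 7.43 FPKM (SD, n = 4). Gdf15 lost its decrease: at 24 h it was at 10.8 ± 2.97 FPKM with IL-4 and 7.17 ± 1.74 FPKM without (difference 2.89). Tgif1 returned in steps, at 26.0 ± 1.11 FPKM with IL-4 beside 60.8 ± 2.37 FPKM in controls at 3 h, and 75.6 ± 0.479 beside 75.9 ± 6.44 FPKM at 24 h. Id2 passed through the control level, from 25.9 ± 3.56 FPKM at 1 h to 128.7 ± 13.6 FPKM at 24 h, where its control was at 53.3 ± 2.83 FPKM.

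**Figure D5:**
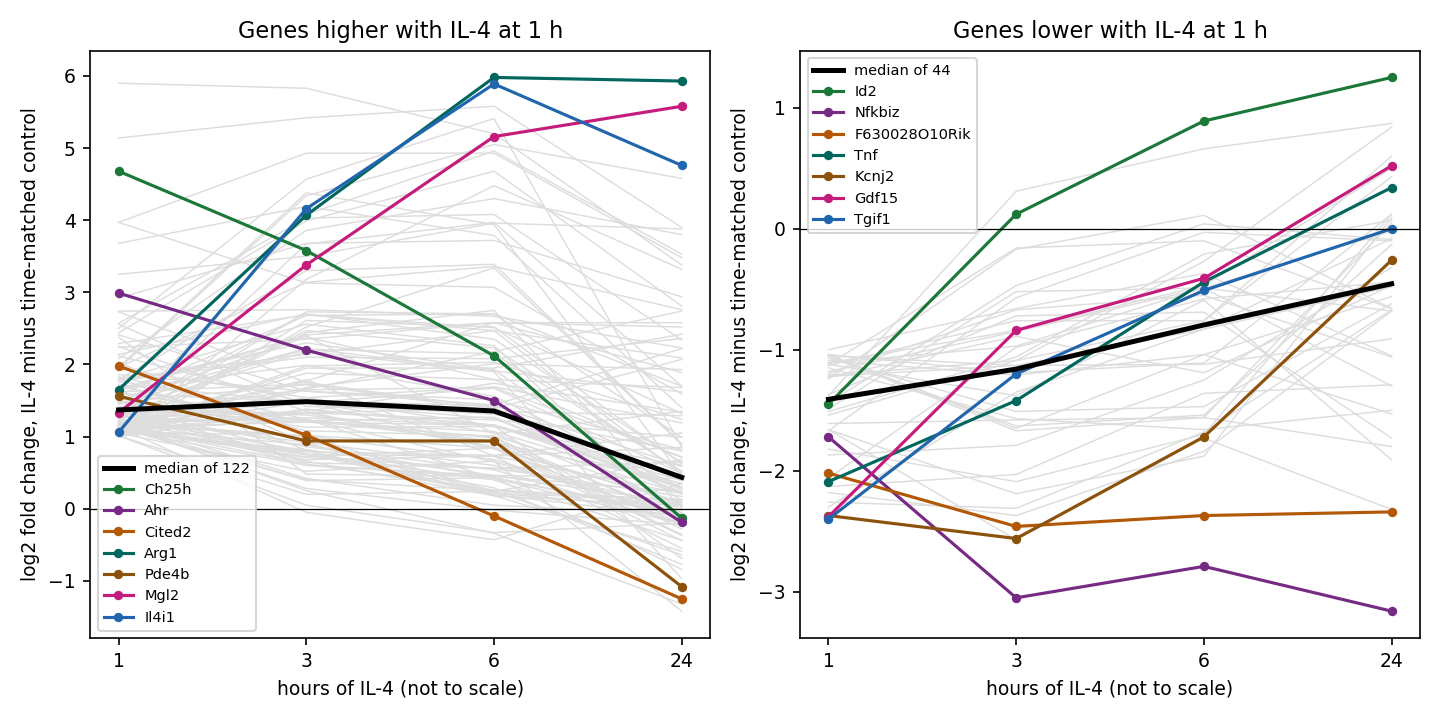
Log2 fold change of IL-4 against the time-matched control on log2(FPKM + 1) (vertical axis) at 1, 3, 6 and 24 h (horizontal axis, not to scale) in WT BMDMs for the 122 genes increased (left) and the 44 decreased (right) at 1 h, 1 grey line per gene, a black line for the median and coloured lines for named genes. The median of the increased genes falls from 1.49 at 3 h to 0.44 at 24 h while Arg1, Mgl2 and Il4i1 climb above 4, and the median of the decreased genes rises from -1.16 to -0.46.

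The called genes had fewer exons at the median than all genes tested, and the decreased ones shorter loci. Of the loci as listed in the files, the 122 increased genes had a median length of 15609.5 bp and the 44 decreased genes one of 4842.5 bp, beside 20385 bp over all loci tested. By GENCODE models on this build the medians were 5, 4 and 9 exons, from all 122, all 44 and 98.6% of genes, and 4.10%, 9.09% and 2.26% had a single exon. The 3′ UTR had a median length of 1559 bases in increased, 1076 in decreased and 1135.5 in all genes. At least 1 AU-rich pentamer ATTTA stood in the 3′ UTR of 86.6% of increased, 82.9% of decreased and 69.7% of all genes with an annotated 3′ UTR, and the nonamer TTATTTATT, which contains the pentamer, in 11.8%, 24.4% and 7.90%. These motifs were chosen after the values of the genes were seen, were searched on the sense strand, and no test was made.

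Promoter windows from RefSeq were matched for 79.5% of increased, 79.5% of decreased and 79.3% of all genes. That is under the 80% set as a minimum, so a comparison of palindrome shares between these groups is void and is not given. The palindrome of 4 spacer bases, written TTCNNNNGAA, stood in 7.03% of all RefSeq windows, so a match does not mark a gene as a STAT6 target. It stood in 8 of the 97 matched windows of increased genes, Tfec, Tmem26, Clec7a, Plekhf1, Pdcd1lg2, Gpr85, Edn1 and Fbxo33. Of these, 3 windows follow as examples of its sequence and place, 5′ to 3′ in the direction of transcription, with the palindrome in capitals.
Tfec (GRCm38.p6, minus strand, chr6:16898392-16898691): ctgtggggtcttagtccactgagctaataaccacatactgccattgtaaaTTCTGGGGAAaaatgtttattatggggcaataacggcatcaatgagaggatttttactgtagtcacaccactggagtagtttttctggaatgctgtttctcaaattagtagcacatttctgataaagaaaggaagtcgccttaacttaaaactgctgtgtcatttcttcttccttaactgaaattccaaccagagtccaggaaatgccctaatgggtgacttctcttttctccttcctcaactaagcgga
Clec7a (GRCm38.p6, minus strand, chr6:129472730-129473029): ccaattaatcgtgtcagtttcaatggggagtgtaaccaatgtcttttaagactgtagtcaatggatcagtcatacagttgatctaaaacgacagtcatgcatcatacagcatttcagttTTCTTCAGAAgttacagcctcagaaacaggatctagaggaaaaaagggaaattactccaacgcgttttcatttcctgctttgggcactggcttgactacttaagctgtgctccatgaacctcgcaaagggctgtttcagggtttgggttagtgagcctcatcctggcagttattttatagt
Edn1 (GRCm38.p6, plus strand, chr13:42301226-42301525): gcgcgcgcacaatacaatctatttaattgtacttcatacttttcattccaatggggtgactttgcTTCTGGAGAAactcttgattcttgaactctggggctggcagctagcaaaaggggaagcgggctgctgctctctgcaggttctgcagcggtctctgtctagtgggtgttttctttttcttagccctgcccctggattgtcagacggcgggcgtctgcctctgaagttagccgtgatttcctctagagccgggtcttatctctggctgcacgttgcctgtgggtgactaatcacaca
The first base of the palindrome stood at -200 in Tfec, -131 in Clec7a and -185 in Edn1, counted from the RefSeq start site. The Edn1 locus as measured begins earlier, at 42301270, so the palindrome at 42301291 to 42301300 lies inside that locus. Tfec and Clec7a were at 13.6 ± 2.79 and 75.3 ± 4.02 FPKM in controls (SD, n = 4), whereas Edn1 was near absence.

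Some named loci cannot be measured apart from a neighbour. The library preparation is not described as stranded, so fragments of overlapping genes on opposite strands could not be told apart. Nab2, which fell from 13.2 ± 1.97 to 4.47 ± 0.767 FPKM (SD, n = 4), overlaps the end of Stat6, Il4i1 overlaps a read-through locus with Nup62, and Filip1l overlaps Cmss1. H2-K2, a decreased locus of the major histocompatibility complex, is typed as a transcribed pseudogene in the gene models. Of the short stretches of its longest annotated transcript, 10.9% also occur in transcripts of other genes.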

How the data were processed

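RNA-seq of polyadenylated RNA was taken as FPKM values per locus, which the authors had made with TopHat2 2.0.7 and Cufflinks 2.0.2 (versions per the submitters' processing notes) on mm10 and deposited in a separate file for each sample. Fragment counts were not used here, and the gene annotation is not given in the sources used here. Estimates under 1e-06 FPKM were set to 0, and 80 of the 10657 loci tested share a symbol with another locus, none of them called.

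log2(FPKM + 1) of all 53 samples was fitted in R 4.3.3 with limma 3.58.1 (1 mean per group of genotype, treatment and time, 18 groups, 35 residual degrees of freedom, trended prior variance). All contrasts were two-sided, with Benjamini-Hochberg adjustment over the loci tested. Calls needed an adjusted p under 0.05 and a log2 fold change of at least 1 in size, and the procedure was tested on simulated data. No 2 of the 8 samples held identical values. Relative depth was solved from the ratios of low values, and 120 of 120 sample pairs agreed within 2%. It bounds the precision of low loci, and total depth is unknown.

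Named genes were the 15 largest increases and 10 largest decreases, Stat6, the markers Socs1, Cish, Ch25h and Tgif1, up to 4 called members per list, or the largest values where fewer were called, and among genes called at 1 h, the 4 widest differences between 24 h and 1 h each way. Members and gene lists were chosen with earlier results of these data known. Outside this rule, and chosen after their values were seen, are Socs3, Batf3, Klf4, Csrnp1, Cebpb, Id3, Btg2, Klf10, Klf2, Nr4a1, Pdcd1lg2, Ccl2, Ccl12, Ccl24, Snora65, Retnla, Chil3, Irf1 in Stat6-/-, Ceacam1, Nab2, H2-K2, Filip1l, Tnfsf14, Tmem26, Plekhf1, Gpr85, Fbxo33, Trib1, Vmp1, Klf7, Zc3h12c, the threshold neighbours, the Cish promoter, the 3′ UTR motifs and the genes of the closing section. One called transcription factor is not reported here. Promoter and microRNA sequences came from RefSeq tables and gene models from GENCODE.

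Alternatives were pseudocounts of 0.1 and 5, other filters on low values, quantile normalization, median-ratio scaling, only the samples compared, the replicate number as a block, no trend, Tukey's adjustment within a gene and leaving out each sample.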

Additional observations from a re-analysis of the deposited data

Results flagged for a closer look

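Stat6 was at 68.9 FPKM in replicate 4 of the WT 1 h IL-4 samples, below the 71.8 to 72.3 FPKM of the other 3, and its gap to them was large for the range of the group. Of 52 groups examined, those of 26 genes, this was the 1 that stood out, where chance alone flags about 1 group in 20. The 1 h response differed between WT and Stat6-/- in 139 loci by the test of the difference itself. Between times in WT, the response at 3 h differed from that at 1 h in 160 loci, that at 6 h in 376 and that at 24 h in 936, each again by a test of the difference in limma with Benjamini-Hochberg adjustment.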

How the results depend on the processing

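No named gene changed direction under any alternative. A pseudocount of 5 lowered the counts to 74 genes for 1 h IL-4 in WT (55 increased, 19 decreased), 71 against 0 h, 68 for the difference between genotypes, 232, 310 and 461 at 3, 6 and 24 h, and 70, 185 and 496 for the differences of 3, 6 and 24 h from 1 h. It ended 12 named calls, those of Hbegf, Slc7a2, Id1, Arg1, Kcna3, Mgl2, Socs2, Edn1, Il4i1, Spry2, Cxcl2 and Bcl3, since it shrinks the fold of low genes. A pseudocount of 0.1 gave 67 decreased genes at 1 h, 1328 at 24 h, and 569 and 1393 for 6 h and 24 h against 1 h. In Stat6-/- it called 1 gene, Cish. The fit of only the samples compared also called 1, Snora65, and the replicate block 1, Irf1, while Tukey's adjustment called 2, Irf1 and Ceacam1, and the cause was not tested.

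Leaving out 1 sample gave 164 to 179 genes at 1 h (116 to 134 increased, 43 to 48 decreased), 0 for the 1 h against the 0 h control, 159 to 167 against 0 h, 129 to 140 for the difference between genotypes, and 141 to 169, 356 to 394 and 876 to 985 for 3, 6 and 24 h against 1 h. Tlr8 was called without IL-4 replicate 3 or without control replicate 3 or 4, and under quantile normalization, which ended the call of Edn1. Tukey's adjustment ended those of Mgl2, Spry2 and Mylip, and was not run for the 0 h and difference comparisons.

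With the replicate block 172 genes were called at 1 h, among them all 166, and 171 for the difference between genotypes. Same-numbered IL-4 and control samples had deviations correlated at 0.18, 0.26, 0.02 and 0.17, which is under 0.1 for 1 number. The labels do not tie a number to an animal, and the numbers were not taken as pairs. These values do not exclude a pairing. The IL-4 samples 1 and 2 correlated best with the control of their own number and 3 and 4 with each other's. Over all WT groups the mean correlation was 0.23 for 136 same-numbered pairs and -0.08 for 408 others, a hint from the data and not from the design. Chemokines had 3 increased members with the block or with only the samples compared, and 2 with a pseudocount of 0.1 (Ccl7 and Ccl24), instead of 1.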

Other observations

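Of the 122 genes increased at 1 h, 9 had a response that was larger at 24 h than at 1 h, and some of these are not markers of polarization. Tmem26, which encodes a membrane protein, was at 0.989, 1.14, 0.994 and 0.952 FPKM in WT controls and 6.73, 6.54, 6.67 and 7.13 FPKM after 1 h of IL-4, with log2 fold changes of 1.94 at 1 h and 4.58 at 24 h. Ptgs1, the constitutive cyclooxygenase, was at 2.12 ± 0.315 and 5.27 ± 0.715 FPKM (SD, n = 4) and went from 1.00 at 1 h to 3.32 at 24 h. Trib1, a pseudokinase that steers degradation of C/EBP proteins, was called at 1 h and at no later time, with 2.38 on the log2 scale at 1 h and 0.48, 0.45 and 0.23 at 3, 6 and 24 h. Nab2, a repressor of EGR factors, fell at 1 h by 1.38 on the log2 scale and was at 0.31, 0.66 and 0.87 later, none of them called, in a locus that overlaps Stat6. Jag1, a Notch ligand, fell from 2.31 ± 0.427 to 0.595 ± 0.0822 FPKM (SD, n = 4).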
